A study of Mus musculus with 6 samples.

Results

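Aldehyde, alcohol and carbonyl metabolizing enzymes were followed in MC3T3-E1 cells, a clonal mouse pre-osteoblast line, that were induced toward bone-forming cells with or without the antidiabetic biguanide metformin. The enzymes were taken by gene symbol: every protein-coding gene of the deposited table whose name begins with Akr1, or with Aldh or Adh and a digit, together with Cbr1 to Cbr4, and without Aldh1l2. The rule found 46 of the 54532 genes in the table, which were 20 Aldh, 16 Akr1, 6 Adh and 4 Cbr genes. The control cells were kept for 3 days in osteogenic medium, which holds β-glycerophosphate, ascorbic acid and dexamethasone, and the treated cells received the same medium with 0.2 mM metformin. Each group had 3 samples, described in the study as biological replicates. Medium, dose and time come from the study's text. The treatment labels read control and metformin, and the sample labels give neither dose nor time. The results hold for 1 cell line at 1 dose and 1 time.

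Aldehydes arise in every cell from lipid peroxidation, from the breakdown of amino acids, amines and sugars, and from the oxidation of alcohols such as ethanol and retinol. Aldehyde dehydrogenases (Aldh) oxidize them to acids, alcohol dehydrogenases (Adh) convert alcohols and aldehydes into each other, and aldo-keto reductases (Akr1) and carbonyl reductases (Cbr) reduce aldehydes, ketones and quinones with NADPH. In osteoblasts some of these enzymes also stand in the pathways of proline, which collagen needs in bulk, and of retinoic acid, which acts on skeletal cells.

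The values of the table were read as FPKM, the reads of a gene scaled by its length and by the library. Levels of different genes are set side by side on this reading. The order of genes holds only as far as the gene lengths in the table match the transcripts present. The reads behind the values came to between 18399861 and 22111790 per sample, and a count of 0 allows a share of up to 3 reads, which is 1.4e-05% to 1.6e-05% of a sample. This floor covers counting error only. The label of osteoblasts was checked against 8 osteoblast markers, all of which were detected, with summed levels of 10000 to 11800 FPKM in osteogenic medium and 6790 to 7180 FPKM with metformin. Of these markers 2 were called higher and 2 lower, so they did not all follow the sum. Of 5 myoblast markers Myod1, Myog, Myf5 and Pax7 had no reads. The remaining one, Des, passed the filter on low values and was not called. The myoblast sum was 1.2 to 1.87 FPKM without and 2.07 to 2.38 FPKM with metformin. The 5 endothelial markers together reached at most 0.156 FPKM. The 5 macrophage markers summed to 15.3 to 26 FPKM without and 27.1 to 30.9 FPKM with metformin, although the leukocyte markers Ptprc, Adgre1 and Csf1r were under the filter on low values. Of the 2 macrophage markers above the filter, 0 were called higher and 1 was called lower, against the direction of the sum. The 5 chondrocyte markers, of which 2 passed the filter and 0 were called, summed to 26.6 to 39.9 FPKM without and 28.7 to 30.6 FPKM with metformin. The 5 adipocyte markers, with 1 past the filter and 0 called, summed to 1.76 to 3.18 and 2.1 to 2.45 FPKM. The part of these marker levels in the results on the enzymes was not tested. In bulk RNA a smaller number of cells that express a gene and less RNA of it per cell cannot be told apart. Control replicate 1 stood apart: its log2 values had Pearson correlations across genes of 0.96 and 0.952 with the other controls, which correlated at 0.988 with each other, while the metformin samples correlated at 0.992.

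Expression of the family was uneven. Of the 46 genes, 29 had a mean of at least 0.5 FPKM over the 6 samples and entered the comparison, made by limma-trend on log2(FPKM + 1), a scale that understates the change of low genes. Akr1a1, the general aldehyde reductase of the cytosol, was the highest member in both groups, with a mean of 113 ± 11.3 FPKM (SD, n = 3) in osteogenic medium and 115 ± 2.21 FPKM with metformin. Aldh2, the mitochondrial enzyme of acetaldehyde and lipid-derived aldehydes, came next at 41.9 ± 17.4 and 69.2 ± 3.01 FPKM. Aldh18a1 followed at 34.1 ± 0.771 FPKM in osteogenic medium, a level that lay within the spread of its neighbour in that order, Akr1b8, at 33.3 ± 2.10 FPKM. With metformin Aldh18a1 at 48.2 ± 1.32 FPKM lay above Akr1b8 at 34.4 ± 1.09 FPKM in every sample. At the other end of the tested genes Aldh1a3 averaged 0.701 and 0.957 FPKM and Akr1c13 0.876 and 0.608 FPKM. The levels of all tested members in each sample, plotted by family, span this range.

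**Figure D1:**
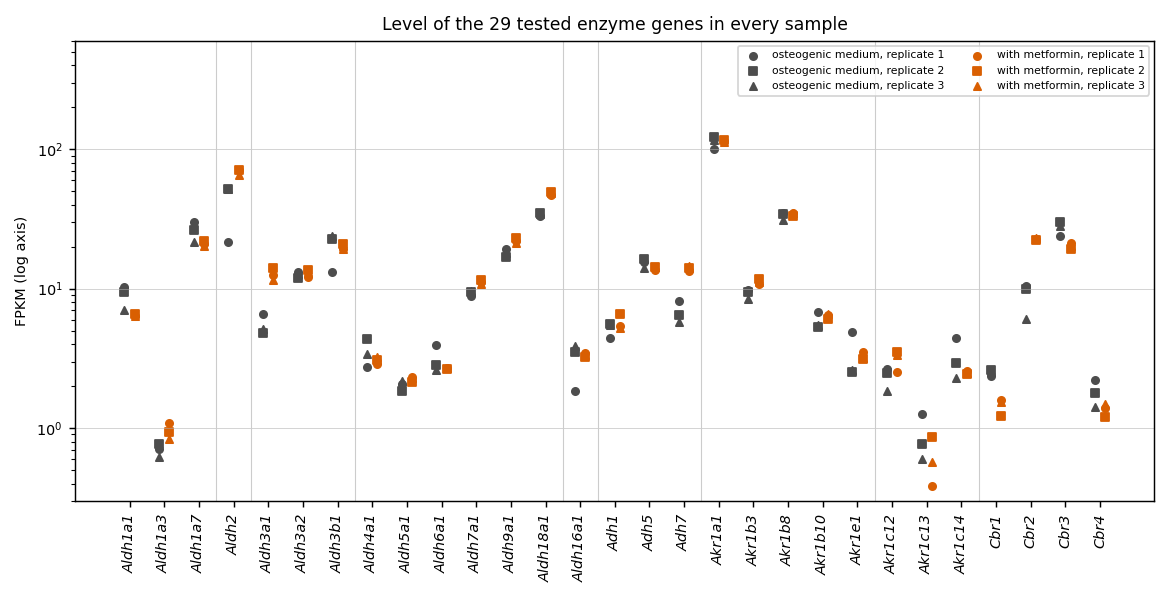
FPKM of the 29 tested members in each of the 6 samples (log axis), ordered by family, with grey symbols for osteogenic medium, orange symbols for metformin, and circle, square and triangle for replicates 1, 2 and 3. Akr1a1 lies highest in both groups, Aldh2 replicate 1 in osteogenic medium (21.7 FPKM) lies far under the other 5 samples, and Cbr2, Aldh3a1 and Adh7 separate by treatment.

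Summed over all 46 genes, the level was 401, 455 and 430 FPKM in osteogenic medium and 489, 501 and 486 FPKM with metformin. The sums of the groups did not overlap. Akr1a1 alone made up 25.1% to 27.1% of the sum in osteogenic medium and 23.2% to 23.4% with metformin. Without Akr1a1 and Aldh2 the sums were 279, 281 and 261 FPKM against 305, 313 and 307 FPKM. That gap is smaller but again without overlap. The reduced sums still hold the 4 members called higher, such as Cbr2 (means 8.82 and 22.7 FPKM) and Aldh18a1 (34.1 and 48.2 FPKM). They also hold the 2 called lower, with Cbr3 at 27.4 and 20.3 FPKM. Of the 29 tested members 19 had a positive and 10 a negative log2 fold change. The gap therefore does not show a rise across the family. These sums are descriptions of the group of genes and carry no test.

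With metformin 4 of the 29 tested members were called higher (13.8%) and 2 were called lower (6.9%), at an adjusted p under 0.05 by limma with Benjamini-Hochberg adjustment over 12681 genes. Among all tested genes 13.2% were called higher and 9.28% lower, so the share of members called was near the background in each direction. All metformin samples lay above all controls for 9 members (31%), against 23.6% of all tested genes, and below them for 3 members (10.3%), against 20.5%. The median log2 fold change of the 29 members was 0.046, beside 0.0053 for all tested genes. The calls were spread over 3 of the 4 families. Aldh3a1 and Aldh18a1 of the 14 tested Aldh genes and Adh7 of the 3 tested Adh genes were called higher. Of the 4 Cbr genes Cbr2 was called higher, and Cbr1 and Cbr3 were called lower. None of the 8 tested Akr1 genes was called. The other 23 tested members did not pass the test.

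Without control replicate 1 the counts became 10 higher and 3 lower, where 23.4% of all tested genes were called higher and 20.4% lower. The members gained were Aldh2, Aldh7a1, Aldh9a1, Akr1b3, Akr1b10 and Akr1e1 as higher and Aldh3b1 as lower. With this library left out the share of members called higher was 34.5%, above that of all genes, and the share called lower was 10.3%, below that of all genes.

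The promoters of called members are shown first, because 4 genes that moved with the treatment can be compared by what stands directly upstream of them. The sequences are RefSeq's, on GRCm38.p6, read 5′ to 3′ on the strand of the gene, and hold the 250 bases upstream of the RefSeq start, less any bases that the deposited table places inside the gene. They are Adh7 (chr3:138217523-138217759, plus strand), Cbr2 (chr11:120732115-120732271, minus strand), Aldh18a1 (chr19:40588464-40588713, minus strand) and Cbr3 (chr16:93682969-93683214, plus strand). Capitals mark every match, on either strand, to TGACNNNGC (the core of the antioxidant response element), TGACTCA (AP-1), TTGCGTG (the xenobiotic response element), CCAAT (the CCAAT box), TATAAA (the TATA box), GGGCGG (the GC box) and CACGTG (an E-box). The GC box and the E-box were added after the sequences were read.

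Adh7: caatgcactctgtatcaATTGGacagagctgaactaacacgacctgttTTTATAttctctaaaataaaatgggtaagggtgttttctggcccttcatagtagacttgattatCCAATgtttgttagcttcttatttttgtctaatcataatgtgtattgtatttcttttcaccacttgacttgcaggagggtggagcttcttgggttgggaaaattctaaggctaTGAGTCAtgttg
Cbr2: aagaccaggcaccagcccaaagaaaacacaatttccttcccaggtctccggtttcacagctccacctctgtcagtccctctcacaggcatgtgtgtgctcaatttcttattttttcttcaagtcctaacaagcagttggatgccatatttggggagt
Aldh18a1: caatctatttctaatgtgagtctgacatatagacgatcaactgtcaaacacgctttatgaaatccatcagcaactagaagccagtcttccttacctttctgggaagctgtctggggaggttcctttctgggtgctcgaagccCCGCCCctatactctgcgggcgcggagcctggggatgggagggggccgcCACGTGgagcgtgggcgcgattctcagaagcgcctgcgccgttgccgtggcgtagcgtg
Cbr3: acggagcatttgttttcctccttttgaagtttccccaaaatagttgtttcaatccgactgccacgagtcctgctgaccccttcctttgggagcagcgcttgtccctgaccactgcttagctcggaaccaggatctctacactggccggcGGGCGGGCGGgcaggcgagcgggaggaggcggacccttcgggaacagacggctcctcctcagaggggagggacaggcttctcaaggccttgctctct

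Counted back from the RefSeq start, the Adh7 sequence has a CCAAT box at -138 and, on the opposite strand, a CCAAT box at -233, a TATA box at -202 and an AP-1 match at -25. Aldh18a1 has a GC box on the opposite strand at -108 and an E-box at -59, and Cbr3 has overlapping GC boxes at -101 and -97. Cbr2 has no match to these letters in its window. RefSeq promoters were matched for 38 of the 46 members and for 24 of the 29 tested ones, Aldh3a1 and Aldh2 not among them, and the RefSeq start of Cbr1 lies 1984 bases inside the gene of the table, so its window is not shown. The antioxidant response core was found in 1 of the 24, Aldh9a1, where 10.2% of all 32851 promoters hold it. AP-1 was found in Adh7 and Aldh1a1, against 4.46% of all promoters, and the xenobiotic element in 0 of the 24, against 0.925%. The CCAAT box was found in 10 of the 24 (33.8% of all promoters), the GC box in 8 (32.7%), the TATA box in 3 (12.4%) and CACGTG in 2 (6.02%). The RefSeq starts of Adh1 and Akr1c14 also lie inside their genes of the table, by 16594 and 10580 bases. Without them and Cbr1 the CCAAT box was in 9 of 21, and the counts of the other motifs over tested members were the same. A match is a string of letters and was not tested as a binding site.

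The largest increase among the members was that of Cbr2, a carbonyl reductase known best from lung mitochondria. Cbr2 stood at 10.4, 9.99 and 6.06 FPKM in osteogenic medium and at 22.8, 22.3 and 23.1 FPKM with metformin. Every metformin sample lay above every control, and the treated samples lay close together while control replicate 3 lay below the other controls. The means were 8.82 ± 2.40 and 22.7 ± 0.397 FPKM (SD, n = 3), a ratio of 2.58, with a log2 fold change of 1.31 (SE 0.19, limma adjusted p = 0.00376). Among the members ordered by level it moved from rank 14 to rank 5. The gene lies on chromosome 11 from 120729489 to 120732114 on the minus strand of GRCm38.

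No other carbonyl reductase was called higher. Cbr1, which reduces quinones and prostaglandins, fell from 2.38, 2.61 and 2.55 FPKM to 1.60, 1.22 and 1.53 FPKM, a log2 fold change of -0.52 (SE 0.097, limma adjusted p = 0.0104). The ratio of its means was 0.576, and with 0.1 as pseudocount its log2 fold change was -0.762. Its groups did not overlap, and it rested on 68 to 140 reads per sample. Cbr3, a relative of Cbr1 with a narrower range of substrates, fell from 23.9, 30.1 and 28.0 FPKM to 21.1, 19.4 and 20.3 FPKM, a log2 fold change of -0.41 (SE 0.11, limma adjusted p = 0.0344). The ratio of the Cbr3 means was 0.741. All its metformin samples lay below all controls, but when replicates were left out in turn, the call of Cbr3 held in 1 of 6 fits, the fit without control replicate 1, and its adjusted p over all alternatives ran from 0.0014 to 0.143. Cbr4, a subunit of a mitochondrial ketoacyl reductase that also reduces quinones, was at 2.20, 1.79 and 1.41 FPKM without and 1.40, 1.2 and 1.49 FPKM with metformin, and its groups overlapped (log2 fold change -0.24, SE 0.13, limma adjusted p = 0.234). Cbr2 over Cbr3, as a ratio of levels within each sample, was 0.435, 0.331 and 0.216 in osteogenic medium and 1.08, 1.15 and 1.14 with metformin, so Cbr2 lay under Cbr3 in every control and over it in every treated sample.

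**Figure D2:**
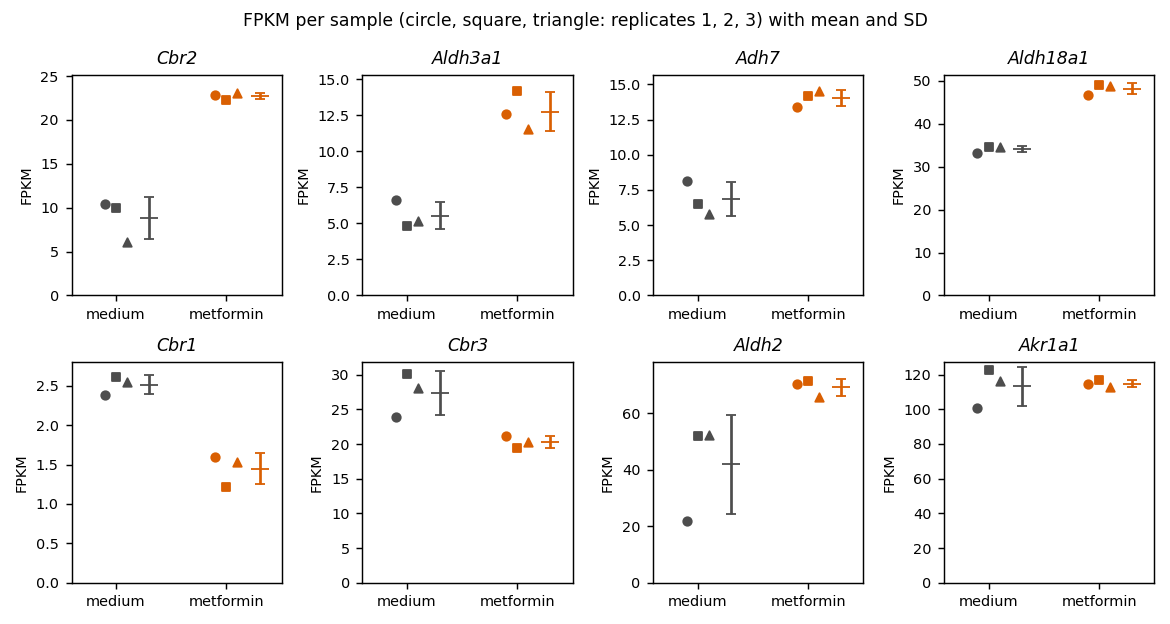
FPKM (linear axes from 0) of the 6 called members and of Aldh2 and Akr1a1 in each sample, with circle, square and triangle for replicates 1, 2 and 3, and beside them the mean (horizontal bar) and SD (whiskers) of each group of 3. Cbr2, Aldh3a1, Adh7 and Aldh18a1 lie higher and Cbr1 and Cbr3 lower in all metformin samples, Aldh2 has a control at 21.7 FPKM apart from the others, and Akr1a1 overlaps.

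Among the enzymes of fatty and lipid-peroxidation aldehydes, Aldh3a1 rose. Aldh3a1 oxidizes medium-chain and lipid-derived aldehydes and is known as an abundant protein of the cornea. It stood at 6.63, 4.84 and 5.16 FPKM in osteogenic medium and at 12.6, 14.2 and 11.6 FPKM with metformin. The lowest treated sample lay well above the highest control. The means were 5.54 ± 0.954 and 12.8 ± 1.33 FPKM, a ratio of 2.30, with a log2 fold change of 1.08 (SE 0.13, limma adjusted p = 0.00186). The gene lies on chromosome 11 from 61207537 to 61218421 on the plus strand.

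Its neighbour on that chromosome, Aldh3a2, encodes the fatty aldehyde dehydrogenase of the endoplasmic reticulum. Aldh3a2 stood at 13.2, 11.9 and 12.7 FPKM without and 12.1, 13.6 and 13.2 FPKM with metformin, and the groups overlapped (log2 fold change 0.040, SE 0.085, 95% interval -0.16 to 0.24, limma adjusted p = 0.777). Aldh3a1 was at 0.501, 0.407 and 0.406 of the level of Aldh3a2 in the controls and at 1.04, 1.04 and 0.874 of it with metformin. Aldh3b1, another enzyme of lipid aldehydes, was at 13.3, 22.9 and 23.8 FPKM and then at 19.3, 20.8 and 19.2 FPKM, so that its treated samples lay between control replicate 1 and the other controls. Its log2 fold change was 0.0255 (SE 0.21, limma adjusted p = 0.947) with all samples and -0.23 (limma adjusted p = 0.0213) without control replicate 1. The relatives Aldh3b2 and Aldh3b3 had 1 and 5 reads in all 6 samples together and were not tested.

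Of the alcohol dehydrogenases Adh7 was called. Adh7 is the class IV enzyme of retinol and ethanol, known from the stomach and other epithelia. Its levels were 8.16, 6.52 and 5.80 FPKM in osteogenic medium and 13.4, 14.1 and 14.6 FPKM with metformin, with no overlap. The mean went from 6.83 ± 1.21 to 14.0 ± 0.593 FPKM, a ratio of 2.06, with a log2 fold change of 0.95 (SE 0.12, limma adjusted p = 0.00244). It lies on chromosome 3 from 138217760 to 138233382, at the end of the Adh cluster, and overlaps 0610031O16Rik on the opposite strand, which had 0 to 3 reads per sample.

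Adh5, which clears formaldehyde as its glutathione adduct, did not pass the test, with 15.6, 16.4 and 14.0 FPKM without and 13.7, 14.3 and 14.4 FPKM with metformin (log2 fold change -0.11, SE 0.087, 95% interval -0.32 to 0.10, limma adjusted p = 0.412). Adh1, the classical ethanol and retinol enzyme of the liver, was at 4.44, 5.55 and 5.49 FPKM and then at 5.42, 6.54 and 5.24 FPKM (log2 fold change 0.13, SE 0.12, 95% interval -0.15 to 0.41, limma adjusted p = 0.481). Adh7 over Adh5 was 0.522, 0.397 and 0.413 in the controls and 0.976, 0.986 and 1.01 with metformin. The alcohol dehydrogenase of highest FPKM in the control cells was therefore Adh5 in every sample, while in the treated cells Adh7 and Adh5 had about the same FPKM. Adh4 had 1 read in all samples together, and Adh6a and Adh6b had 0.

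The fourth increase was that of Aldh18a1, the synthase of pyrroline-carboxylate, which makes the precursor of proline from glutamate in mitochondria. Aldh18a1 stood at 33.2, 34.6 and 34.5 FPKM in osteogenic medium and at 46.7, 49.1 and 48.8 FPKM with metformin. Both groups were narrow and lay far apart for their spread. The ratio of the means was 1.41 and the log2 fold change 0.49 (SE 0.076, limma adjusted p = 0.0056). It lies on chromosome 19 from 40550257 to 40588463 and overlaps Gm15801, which had 1 to 8 reads per sample.

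Aldh4a1, which carries out the reverse limb by oxidizing the same intermediate to glutamate in proline breakdown, was at 2.76, 4.38 and 3.40 FPKM and then at 2.88, 3.07 and 3.24 FPKM. Its groups overlapped (log2 fold change -0.14, SE 0.14, 95% interval -0.47 to 0.20, limma adjusted p = 0.529). The other dehydrogenases of amino acid, polyamine and choline aldehydes split between a higher pair and the rest. Aldh7a1, an enzyme of lysine breakdown and of betaine aldehyde, was at 8.80, 9.41 and 9.62 FPKM without and 11.2, 11.5 and 10.9 FPKM with metformin (log2 fold change 0.25, SE 0.077, limma adjusted p = 0.0628). Aldh9a1, an enzyme of carnitine synthesis, was at 19.4, 17.0 and 18 FPKM and then at 21.9, 22.9 and 21.3 FPKM (log2 fold change 0.27, SE 0.085, limma adjusted p = 0.0656). All treated samples of both genes lay above all controls, and neither passed the test with all samples, while both passed it without control replicate 1. Aldh7a1 overlaps Phax on the opposite strand, which had 603 to 807 reads per sample, and the counting of strand is not stated in the sources used here.

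Aldh5a1 oxidizes succinic semialdehyde at the end of the breakdown of the transmitter GABA. It was at 2.09, 1.83 and 2.19 FPKM without and 2.31, 2.13 and 2.28 FPKM with metformin (log2 fold change 0.096, SE 0.088, limma adjusted p = 0.484). Aldh6a1, the methylmalonate semialdehyde dehydrogenase of valine breakdown, was at 3.94, 2.84 and 2.62 FPKM and then at 2.72, 2.65 and 2.71 FPKM (log2 fold change -0.15, SE 0.13, limma adjusted p = 0.452). In both the groups overlapped. Aldh16a1, an atypical member of the family, was at 1.83, 3.50 and 3.89 FPKM and then at 3.43, 3.22 and 3.34 FPKM, with control replicate 1 again below every other sample (log2 fold change 0.13, SE 0.20, limma adjusted p = 0.701). It overlaps Pih1d1 on the opposite strand, which had 274 to 551 reads per sample.

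Aldh2 had the largest fold change of the members that did not pass the test. Its levels were 21.7, 51.8 and 52.1 FPKM in osteogenic medium and 70.5, 71.3 and 65.7 FPKM with metformin. The treated samples lay above every control, and control replicate 1 lay far below the other controls. The log2 fold change was 0.81 (SE 0.32, 95% interval 0.04 to 1.58, limma adjusted p = 0.124). Without control replicate 1 it was 0.41, with a limma adjusted p of 0.00238, so the smaller difference passed the test when the spread of the controls was smaller. Control replicate 1 deviated from the mean of the other controls by GC content: between this deviation and the GC percentage of the longest transcript, Spearman's rho was -0.668 over the 12663 genes with a known percentage and -0.695 over the 29 members, points that share the same 3 libraries. Aldh2 has a GC content of 54.8% and a deviation of -1.22 on the log2(FPKM + 1) scale, the lowest of the members. Members of higher GC content deviated less, such as Aldh3b1 (57.2%, -0.77) and Cbr3 (56.0%, -0.27), or the other way, as Cbr2 did (56.9%, 0.37). The part of GC content in the low Aldh2 value was not tested. With a smooth GC trend taken out of each library, a correction chosen with earlier results known, the log2 fold change of Aldh2 was 0.76 (limma adjusted p = 0.0549).

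**Figure D3:**
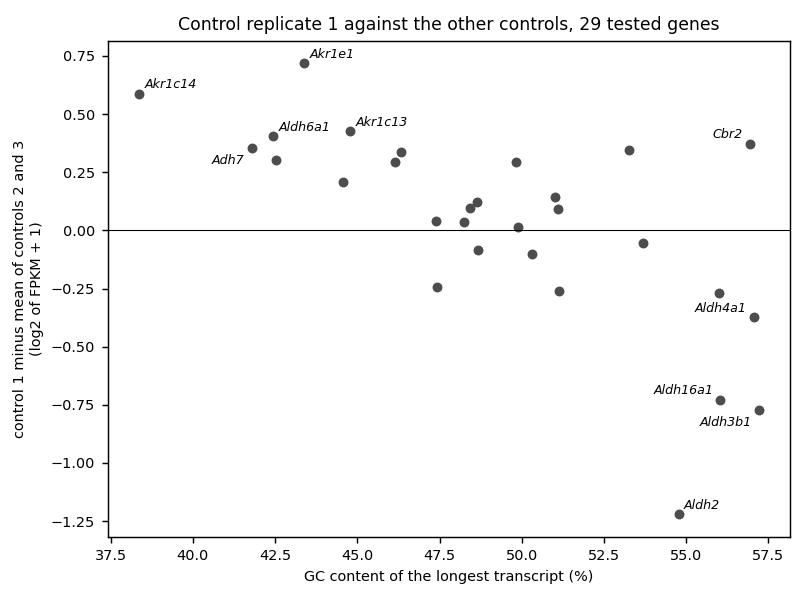
For each of the 29 tested members, the log2(FPKM + 1) of control replicate 1 minus the mean of control replicates 2 and 3 (vertical axis) against the GC content of the longest transcript in percent (horizontal axis). The points fall from Akr1e1 and Akr1c14 on the left, above 0, to Aldh3b1, Aldh16a1 and Aldh2 on the right, below 0, with Cbr2 on the right above 0.

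Aldh1a1 and Aldh1a3 make retinoic acid from retinaldehyde, and Aldh1a7 is a rodent relative of Aldh1a1 by sequence that is grouped with them here without a claim to that activity. None of these 3 genes was called. Aldh1a7 was at 30.3, 26.2 and 21.5 FPKM without and 21, 21.9 and 20.3 FPKM with metformin, with overlap (log2 fold change -0.28, SE 0.13, limma adjusted p = 0.179). It passed the test as lower in 3 of the 14 alternatives. Aldh1a1 was at 10.3, 9.46 and 7.06 FPKM and then at 6.41, 6.62 and 6.40 FPKM, each treated sample below each control (log2 fold change -0.39, SE 0.13, limma adjusted p = 0.0791). It passed the test in 4 of the 14 alternatives. Aldh1a3 was at 0.712, 0.774 and 0.617 FPKM and then at 1.09, 0.944 and 0.834 FPKM, each treated sample above each control (log2 fold change 0.20, SE 0.10, limma adjusted p = 0.212). The ratio of Aldh1a3 to Aldh1a1 within samples was 0.0693, 0.0819 and 0.0874 in the controls and 0.17, 0.143 and 0.13 with metformin, so Aldh1a1 remained the higher gene throughout. Aldh1a2, a main retinoic acid enzyme of the embryo, had 0 reads in all samples, and Aldh8a1 had 20 reads in the controls and 9 with metformin.

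Among 19 other genes of retinoid handling 7 were tested, with 1 called higher and 1 lower (14.3% each, against 13.2% and 9.28% of all tested genes). Crabp2, a carrier that brings retinoic acid to its receptors, fell from 18.2, 37.1 and 35.4 FPKM to 12, 12.1 and 12.8 FPKM (log2 fold change -1.17, SE 0.26, limma adjusted p = 0.0199). Cyp26b1, which breaks retinoic acid down, rose from 32.6, 31.4 and 27.6 FPKM to 38.5, 39.6 and 37.3 FPKM (log2 fold change 0.33, SE 0.093, limma adjusted p = 0.0476). For both genes the groups did not overlap. Control replicate 1 again lay below the other controls for Crabp2. Leaving out any replicate but control replicate 1 brought both counts to 0, and leaving out control replicate 1 gave 1 higher and 4 lower (14.3% and 57.1%, against 23.4% and 20.4% of all tested genes).

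Of the aldo-keto reductases none was called. Akr1a1 was at 101, 122 and 116 FPKM in osteogenic medium and 115, 117 and 113 FPKM with metformin, and the groups overlapped fully (log2 fold change 0.025, SE 0.10, 95% interval -0.22 to 0.27, limma adjusted p = 0.887). The sign turned to negative without control replicate 1 and with scaling by total reads. Akr1b3, the aldose reductase that turns glucose into sorbitol, was at 9.83, 9.46 and 8.47 FPKM and then at 10.9, 11.8 and 11.2 FPKM (log2 fold change 0.26, SE 0.087, limma adjusted p = 0.0734). Its treated samples all lay above the controls, and it passed the test without control replicate 1.

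Akr1b8, an aldose reductase relative first described as induced by fibroblast growth factor, was at 34.7, 34.3 and 30.9 FPKM and then at 35.1, 33.1 and 34.9 FPKM (log2 fold change 0.046, SE 0.085, 95% interval -0.16 to 0.25, limma adjusted p = 0.74). Akr1b10 was at 6.85, 5.33 and 5.48 FPKM and then at 6.50, 6.09 and 6.64 FPKM (log2 fold change 0.11, SE 0.11, limma adjusted p = 0.498). The transcripts of this pair are 95.6% identical over 250 bases, so reads from that stretch could be split between them. Akr1e1, which reduces anhydrofructose, was at 4.87, 2.54 and 2.60 FPKM and then at 3.49, 3.15 and 3.20 FPKM (log2 fold change 0.022, SE 0.20, limma adjusted p = 0.953), with control replicate 1 above every other sample.

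The Akr1c enzymes reduce and oxidize steroids and prostaglandins, and 3 of them were tested. Akr1c14, a hydroxysteroid dehydrogenase, was at 4.40, 2.91 and 2.29 FPKM without and 2.57, 2.45 and 2.49 FPKM with metformin (log2 fold change -0.23, SE 0.18, limma adjusted p = 0.399). Akr1c12 was at 2.65, 2.50 and 1.86 FPKM and then at 2.52, 3.53 and 3.34 FPKM (log2 fold change 0.31, SE 0.14, limma adjusted p = 0.173). Akr1c13 was at 1.26, 0.765 and 0.603 FPKM and then at 0.387, 0.864 and 0.573 FPKM (log2 fold change -0.22, SE 0.17, limma adjusted p = 0.417). The groups overlapped in all 3 genes. Transcripts of Akr1c12 and Akr1c13 are 96.1% identical over 666 bases and Akr1c13 had 11 to 33 reads per sample, so the split of reads between them is uncertain.

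**Figure D4:**
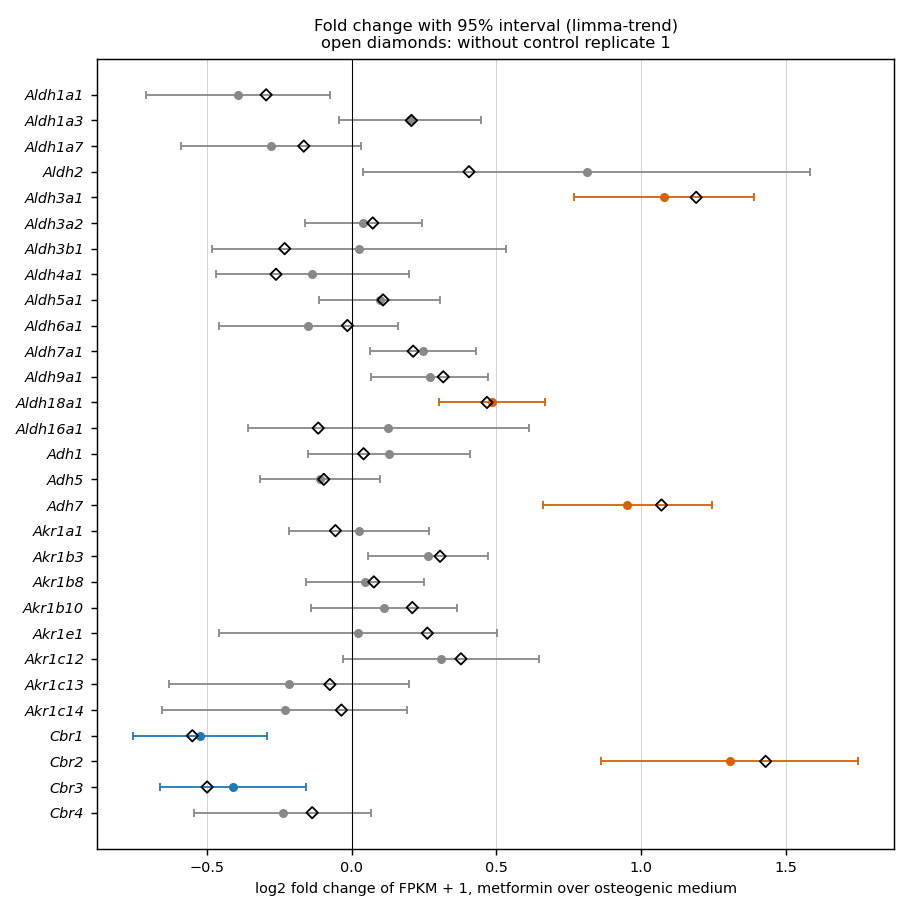
Log2 fold change of FPKM + 1 (metformin over osteogenic medium) for the 29 tested members, as filled circles with 95% intervals from limma-trend, orange for called higher, blue for called lower and grey for not called. Open diamonds give the value without control replicate 1, which lies far from the circle for Aldh2 (0.81 with all samples) and close to it for Aldh18a1 (0.49 with all samples).

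The remaining 17 members had a mean of at most 0.137 FPKM and were not tested. Of these 6 had 0 reads in all samples (Aldh1a2, Aldh1b1, Adh6a, Adh6b, Akr1c6 and Akr1c20), and 7 had 1 to 5 reads in total (Aldh3b2, Aldh3b3, Adh4, Akr1c19, Akr1c21, Akr1cl and Akr1d1). The other 4 were Aldh8a1, Aldh1l1, Akr1b7 and Akr1c18. Aldh1l1, the cytosolic formyltetrahydrofolate dehydrogenase, had 12, 16 and 6 reads in osteogenic medium and 4, 4 and 5 with metformin. Akr1c18, which inactivates progesterone, had 9, 3 and 6 reads and then 0, 0 and 1. Akr1b7 had 2, 7 and 1 reads and then 0, 2 and 0. With no filter on low values limma called 0 of the 17, and Akr1c18 had the lowest adjusted p of them, 0.0902. All treated samples of Aldh8a1, Aldh1l1 and Akr1c18 lay below all controls. Those of Aldh3b3 and Akr1cl lay above all controls, on 5 and 3 reads in total. The share of such genes among all genes under the filter was not computed. On the log2(FPKM + 1) scale, which shrinks differences at such levels, the change of Akr1c18 was -0.31, so a missing call does not show that these genes did not differ.

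By position 28 of the 46 members lie in 7 clusters, taken as neighbours less than 1 Mb apart, and 18 lie alone. The Adh cluster of chromosome 3 holds all 6 Adh genes on the same strand within 238 kb, and of these Adh7 was called higher, Adh1 and Adh5 were not called, and the 3 between Adh1 and Adh5 were not tested. The Akr1c cluster of chromosome 13 holds 9 genes within 560 kb, of which 4 were tested and none was called. Aldh3a1 and Aldh3a2 lie within 59.9 kb on opposite strands, with Aldh3a1 called and Aldh3a2 not. Cbr1 and Cbr3 lie within 85.1 kb of chromosome 16 and were both called lower. Their transcripts are 89.5% identical over 276 bases, under the 95% at which copies were counted as near-identical, and none of the 6 called members has a near-identical copy by that measure.

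**Figure D5:**
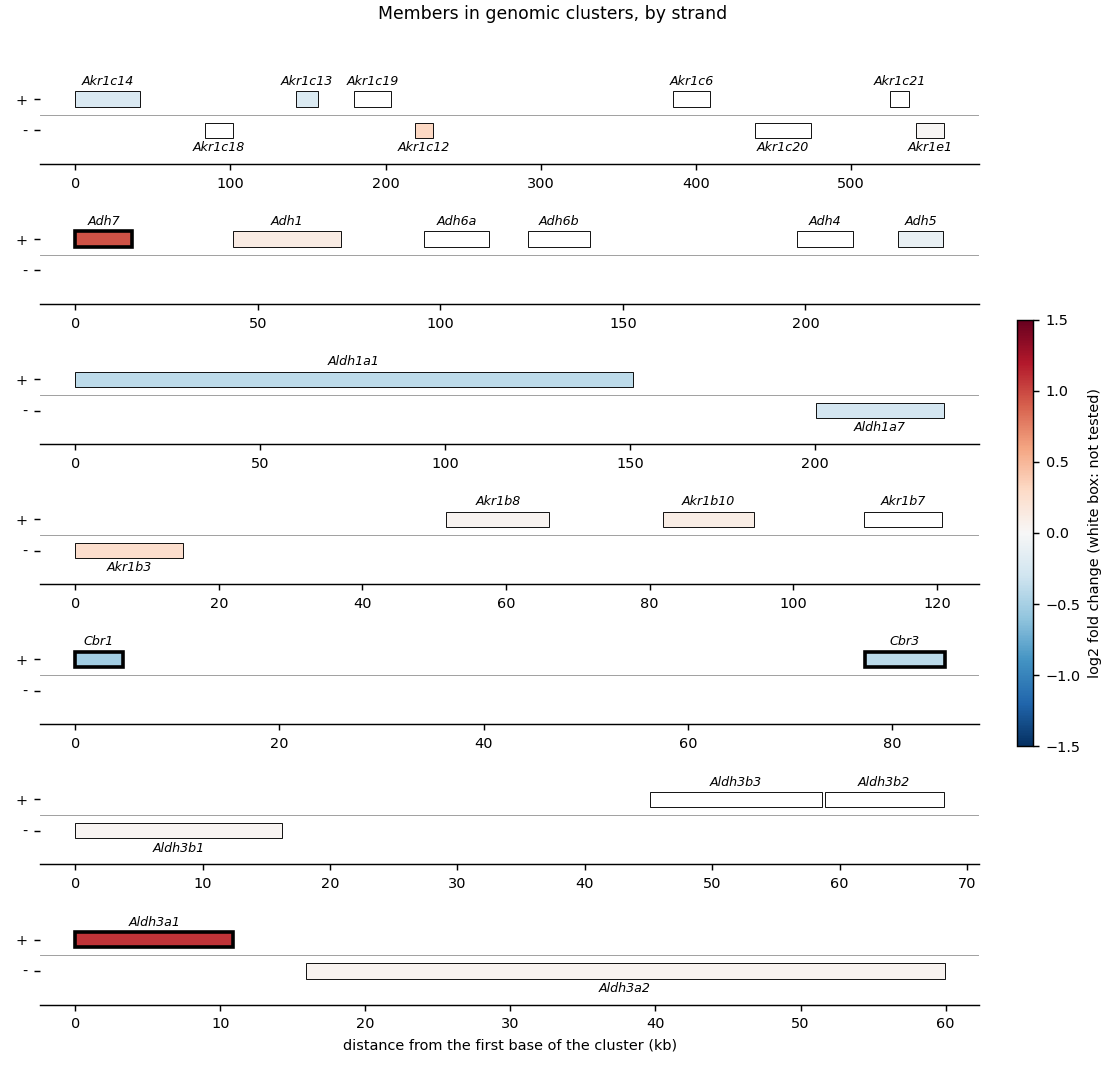
The 7 clusters of members, each gene drawn as a box to scale on its strand against the distance in kb from the first base of the cluster, coloured by log2 fold change (red higher with metformin, blue lower, white not tested), with a thick outline for called genes. Adh7 is the called gene at one end of its cluster, Cbr1 and Cbr3 are both blue with thick outlines, and Aldh3a1 is red beside Aldh3a2.

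Related enzymes outside these families were counted from a list of 46 genes in the table, made up of short-chain dehydrogenases and other enzymes of aldehydes and quinones. Of these 30 were tested, 6 were called higher (20%) and 4 lower (13.3%), against 13.2% and 9.28% of all tested genes. Nqo1, a quinone reductase, rose from 15.9, 13.1 and 10.3 FPKM to 28.8, 31.4 and 31.5 FPKM (log2 fold change 1.18, SE 0.15, limma adjusted p = 0.00242). Ptgr1, which reduces prostaglandins and unsaturated aldehydes, rose from 15.9, 17.3 and 13.7 FPKM to 26.4, 28.5 and 24.8 FPKM (log2 fold change 0.73, SE 0.11, limma adjusted p = 0.00466). Both lay in the range of the called members in size, with no overlap between groups. Kcnab2, a potassium channel subunit with an aldo-keto reductase fold, rose from 0.756, 0.821 and 1.07 FPKM to 1.98, 2.06 and 1.86 FPKM (log2 fold change 0.66, SE 0.10, limma adjusted p = 0.00512). The other increases were those of Rdh11, Dcxr and Dhrs13.

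In the other direction Vat1, a quinone oxidoreductase relative, fell from 77.5, 88.4 and 106 FPKM to 55.6, 58.7 and 54.1 FPKM (log2 fold change -0.67, SE 0.13, limma adjusted p = 0.0113). Rdh10, which makes retinaldehyde from retinol, fell from 4.78, 5.44 and 4.51 FPKM to 3.08, 2.96 and 3.57 FPKM (log2 fold change -0.49, SE 0.10, limma adjusted p = 0.0149). Rdh14, a retinol dehydrogenase relative, fell from 10.1, 9.60 and 7.53 FPKM to 6.44, 6.11 and 6.28 FPKM (log2 fold change -0.46, SE 0.11, limma adjusted p = 0.0308). The treated samples of these genes lay below all controls. The fourth decrease was that of Dhrs7. Over the fits that each left out a replicate, the counts of this list ran from 3 higher and 0 lower without metformin replicate 1 to 7 higher and 7 lower without control replicate 1. The latter counts were 23.3% each way, near the 23.4% higher and 20.4% lower of all tested genes in that fit.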

How the data were processed

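RNA of 3 control and 3 metformin samples of MC3T3-E1 cells was sequenced, and the authors deposited 1 table of normalized values with gene lengths. The table names no unit. Its values were used as deposited and read as FPKM, which is an inference. Multiplying by gene length turned 100% of the non-zero entries of a sample into whole numbers of a fixed unit (tolerance 0.01), which also gave the reads. Other values scaled by length and library would do the same. That unit follows an effective library size, which ran from 18260100 to 21790500 over the samples, near the 18399861 to 22111790 reads recovered. The submitters' processing notes name Bowtie 0.12.2, mm8 and mm9 without roles. The table's coordinates match GENCODE M21 (GRCm38), which holds all 46 members, 43 with the same coordinates. Each column carries the description of its sample.

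The count model planned for a count table was replaced by its fallback: limma 3.58.1 (R 4.3.3) with an intensity trend on log2(FPKM + 1), restricted to 12681 genes averaging 0.5 FPKM or more, with p-values adjusted after Benjamini-Hochberg and called under 0.05. Every tested member is named. Of the related and retinoid genes, the 3 called genes with the largest change each way are named with values. Members and lists were chosen with earlier results of these data known. Near-identical transcripts shared 95% of bases along 200 or more (BLAST+ 2.17.0). The fit was also run on simulated reads that held no outlying library and no GC trend. That run does not cover data with a library like control replicate 1. Replicate samples differed by more than counting noise (median chi-square per gene of at least 1.15, where counting gives 0.455). The fit was repeated with 0.1 as pseudocount, with total-read scaling, with no filter, at least 10 reads in every sample, voom on the recovered reads, the replicate block, leaving out each replicate, and a GC correction added later. Samples that share a replicate number are not said to belong together. P-values weigh the difference between groups against the spread between these samples, with a variance that limma moderates over all tested genes. Plots were made in matplotlib 3.10.9.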

Additional observations from a re-analysis of the deposited data

How the results depend on the processing

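Of the 6 called members, 5 kept their call and direction in all 14 alternatives, and Cbr3 was the exception. The largest limma adjusted p over the alternatives was 0.0499 for Cbr1 and 0.0443 for Aldh18a1, close to the threshold. For Cbr2, Adh7 and Aldh3a1 it was at most 0.0227. Over the fits that left out each replicate, the members called higher ranged from 4 to 10 and those called lower from 1 to 3, the related enzymes from 3 to 7 higher and 0 to 7 lower, and the retinoid genes from 0 to 1 higher and 0 to 4 lower. Each upper end was reached without control replicate 1, where 23.4% of all tested genes were called higher and 20.4% lower. With no filter on low values 1 member was lower, and 0 retinoid genes were higher and 0 lower. With the replicate number as a block 1 member was lower, 3 related enzymes were higher and 1 lower, and 0 retinoid genes were higher. Deviations of same-numbered samples from their group means correlated at -0.053, 0.000265 and -0.0549 across genes. With 3 samples per group and control replicate 1 apart, these values cannot decide whether same-numbered samples belong together. With the GC correction, alone or together with the replicate block, 4 members were lower, 0 retinoid genes were higher and 2 lower. The cause of these moves was not tested. The GC correction moved the median of all genes to -0.0392 and total reads to -0.0168.

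Directions turned for 6 members that no fit with all samples called. Under the GC correction, with or without the replicate block, the log2 fold changes were -0.0304 for Aldh3a2, -0.0423 for Aldh3b1, -0.0507 for Akr1a1 and -0.0187 for Akr1e1. Scaling by total reads gave -0.00169 for Aldh3b1 and -0.00291 for Akr1a1. Leaving out each replicate gave -0.0566 to 0.0842 for Akr1a1, -0.00542 to 0.0762 for Akr1b8, -0.104 to 0.261 for Akr1e1, -0.116 to 0.278 for Aldh16a1 and -0.232 to 0.168 for Aldh3b1. Under the alternatives 367 values of members kept direction and side of the threshold, 18 turned direction, 14 passed it newly in the same direction and 7 lost it. Among the turned values, Aldh3b1 also passed it as lower without control replicate 1. With no filter 5 of 43 tested related enzymes were lower and 4 higher, against 4 lower and 6 higher of 30 with it. On the log2(FPKM + 1) scale the changes of low genes are understated.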
